A study of Mus musculus with 2 samples.

Results

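Voltage-gated potassium channel alpha subunits were described in single cells of the mouse trigeminal ganglion, the ganglion that holds the cell bodies of sensory neurons of the face. Every gene symbol of the families Kcna, Kcnb, Kcnc, Kcnd, Kcnf, Kcng, Kcnh, Kcnq, Kcns and Kcnv was taken, which gave 40 members among 39098 gene symbols. By family these were 8 Kcna, 2 Kcnb, 4 Kcnc, 3 Kcnd, 1 Kcnf, 4 Kcng, 8 Kcnh, 5 Kcnq, 3 Kcns and 2 Kcnv genes. No member was used to choose or gate any cell.

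A ganglion suspension from male C57BL/6 mice of 5 to 8 weeks was profiled after no inflammation (control) and after inflammation of the right vibrissal pad by 20 µL of complete Freund's adjuvant (CFA), a mineral oil emulsion of killed mycobacteria. The control is labelled untreated, while the study's methods describe a saline injection, and ganglia were taken a week after injection. There was 1 library for each condition, and the number of mice in a library was not given in the sources used here. Library and condition therefore cannot be told apart, no test between conditions was made, and all intervals below are 95% intervals that cover counting error only.

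The control file held 7298 cells with 48916096 unique molecular identifiers (UMIs), and the CFA file held 4080 cells with 22096268 UMIs. After cells with fewer than 150 genes or over 25% mitochondrial counts were left out, 6695 control and 3661 CFA cells remained. Neurons were cells with at least 100 UMIs of 7 pan-neuronal genes that made up at least 0.5% of their UMIs, which gave 764 control and 393 CFA neurons with medians of 46157.5 and 37608 UMIs. The libraries shared 27 cell labels. Members had 64840 control and 31036 CFA UMIs in the kept cells, of which 51635 and 23993 lay in neurons.

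Potassium channels of this superfamily open when the membrane is depolarized and carry potassium out of the cell, which repolarizes the action potential and holds the resting potential. A channel is a ring of alpha subunits, and subunits of the same family can mix. Kv1 (Kcna), Kv2 (Kcnb), Kv3 (Kcnc) and Kv4 (Kcnd) subunits form channels on their own, Kv5, Kv6, Kv8 and Kv9 (Kcnf, Kcng, Kcnv, Kcns) are silent subunits that modify Kv2, and the Kcnh and Kcnq families hold the EAG, ERG, ELK and M-current channels. In sensory neurons these channels set the firing threshold, the spike width and the firing rate.

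Neurons were sorted into 9 classes by raw UMIs of marker genes. Mrgprd+ neurons (160 control and 61 CFA) and Mrgpra3+ neurons (45 and 12) are nonpeptidergic nociceptors or itch neurons, and Sst/Nppb+ neurons (12 and 12) are itch neurons. Trpm8+ neurons (36 and 19) carry the cold sensor, and C-fibre low-threshold mechanoreceptors (C-LTMR, 71 and 42) were gated on Tafa4, Th, P2ry1 and Slc17a8. The remaining neurons were split by Nefh, a neurofilament of large neurons, at 20 UMIs, by Calca, the gene of the peptide CGRP, at 100 UMIs and by Sstr2 at 3 UMIs. This gave Nefh-high Calca-low (21 and 13), Nefh-high Calca-high (21 and 8), Calca-high Sstr2+ (95 and 64) and Calca-high Sstr2- neurons (253 and 120). A further 47 control and 41 CFA neurons passed no class gate, with medians of 13723 and 14727 UMIs, and 3 and 1 passed 2 or more. These neurons are in no class but are part of all neurons below. The check markers of a class had counts in both libraries in all classes except Trpm8+ neurons, where 3 of 5 did. Fewer of them were highest in their own class in both libraries. All 6 were in Sst/Nppb+ neurons and all 5 in C-LTMR, but only 5 of 7 in Mrgprd+, 3 of 6 in Mrgpra3+, 2 of 5 in Trpm8+, 3 of 8 in Nefh-high Calca-low, 3 of 6 in Nefh-high Calca-high, 1 of 5 in Calca-high Sstr2+ and 2 of 4 in Calca-high Sstr2- neurons. The class names therefore stand for the gates. Penk and Rxfp1 were at or near 0 in Trpm8+ neurons. In both libraries those neurons also held the highest Pvalb, Cntnap2 and some other check markers of the Nefh-high Calca-low class. The Nefh gate was broad, with 184 neurons of both libraries within 2-fold below its minimum and 142 neurons at or over it. Other gates also had neurons near their minimum. For Sstr2, 42 neurons lay within 2-fold below it, and 79 of the 163 at or over it lay within 2-fold above. For Trpm8 these numbers were 16 below and 26 of 57 above. Levels below are summed UMIs of a class divided by all UMIs of that class, on the usual CPM scale, and they are compared between classes for 1 gene, not between genes.

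Of the 40 members, 35 had at least 20 counts in neurons of both libraries together. Kcna3, Kcna7, Kcna10, Kcnh4 and Kcnv2 had fewer, from 2 for Kcna7 to 17 for Kcnh4, and no statement is made on them. The same neuron class was highest in both libraries for 29 of 35 members, against 41.7% of all genes with at least 20 counts. With neurons thinned to 5000 UMIs the count was 15, of 27 members that still had 20 counts, and no share of all genes is given at that depth. The highest class lay at least 2-fold above the second in both libraries for 11 of 35 members, against 4.63% of all genes. By class, 8 members were highest in Calca-high Sstr2+ neurons, 6 in C-LTMR, 6 in Nefh-high Calca-low neurons, 5 in Trpm8+ neurons, 2 in Mrgprd+ neurons and 2 in Mrgpra3+ neurons. None had its highest level in Sst/Nppb+, Nefh-high Calca-high or Calca-high Sstr2- neurons in both libraries. No share of all genes is given for each class, so these counts by class are not read as a trait of the members. The sparse classes hold few cells, so a class order rests on the cells that were caught.

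**Figure D1:**
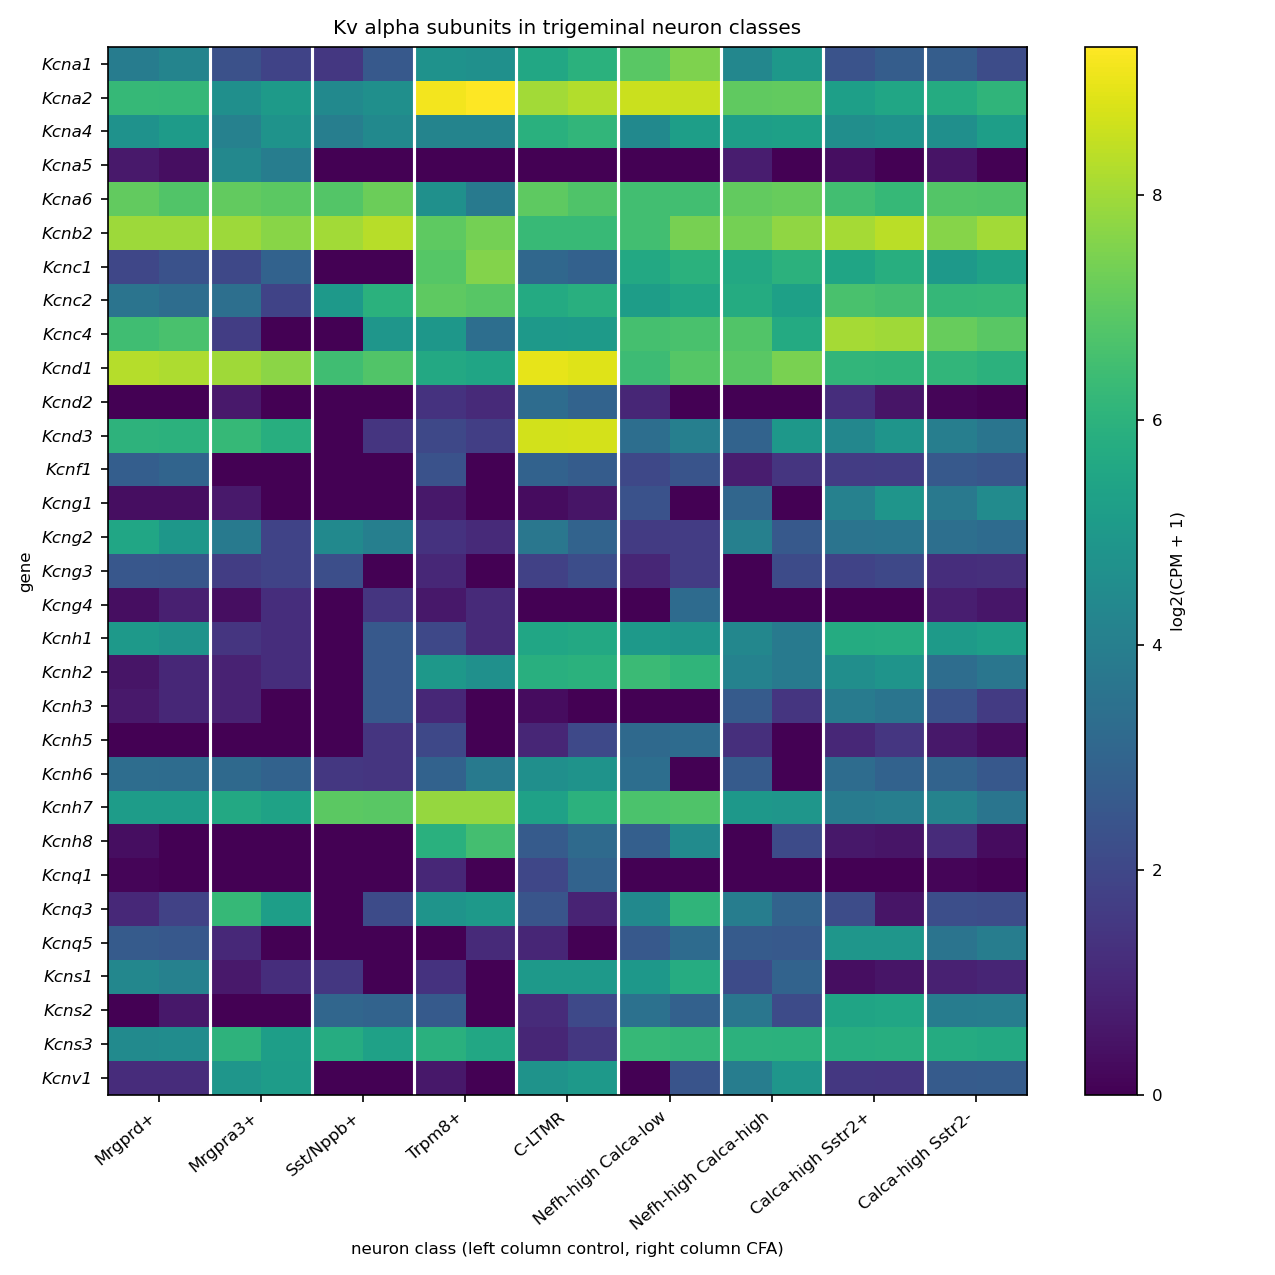
Heat map of members with at least 20 neuron counts (rows) in 9 neuron classes (columns, control left and CFA right within each class), coloured by log2(CPM + 1) of summed UMIs. The C-LTMR columns are bright for Kcnd1 and Kcnd3, the Trpm8+ columns for Kcna2, Kcnc1 and Kcnh7, and the Calca-high Sstr2+ columns for Kcnb2 and Kcnc4, in both libraries.

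Kcna1 (Kv1.1) and Kcna2 (Kv1.2), low-threshold delayed rectifiers best known beside the nodes of Ranvier, had their highest CPM in Schwann cells. Non-neuronal cells held fewer than 20 pan-neuronal UMIs and were gated on markers of their type. Myelinating Schwann cells (2044 control and 1082 CFA) were gated on myelin genes that included Prx and Ncmap, non-myelinating Schwann cells (281 and 139) on Scn7a with Cdh19 and Ncam1, and satellite glia (968 and 365) on Fabp7 and Ptprz1 with Apoe. Of their check markers, 4 of 6, 2 of 5 and 1 of 5 were highest in their own type in both libraries. In myelinating Schwann cells the control level of Kcna1 was 1802 CPM (interval 1751 to 1855) and the CFA level 2137 CPM (2052 to 2224), with 2126 CPM (1968 to 2293) and 2874 CPM (2583 to 3190) in non-myelinating Schwann cells. All neurons together had 17.0 CPM in control and 22.5 CPM in CFA. As a share of UMIs, myelinating Schwann cells thus lay 106-fold (97.6 to 115) and 95.2-fold (85.3 to 106) above them. Schwann cells held far fewer UMIs per cell, with control medians of 1130.5 (myelinating), 1005 (non-myelinating) and 46157.5 (neurons). In control, 2044 myelinating Schwann cells held 4596 Kcna1 UMIs, 764 neurons held 651 and 21 Nefh-high Calca-low neurons held 120. Fold values between glia and neurons compare shares of UMIs, not UMIs per cell. No single cell held more than 2.54% of the Kcna1 counts of a Schwann class. Kcna1 in satellite glia was 60.4 and 50.5 CPM, and in fibroblasts, endothelial and immune cells it lay between 11.1 and 44.5 CPM.

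Among neurons Kcna1 was highest in Nefh-high Calca-low neurons, where the control level was 123 CPM (102 to 147) and the CFA level 183 CPM (146 to 226). C-LTMR followed with 46.6 and 61.2 CPM, and Mrgprd+ neurons had 14.1 and 17.2 CPM. The peptidergic Calca-high Sstr2+ and Sstr2- neurons had 3.51 to 5.75 CPM. Nefh-high Calca-low and C-LTMR ranked first and second in both libraries, with Nefh-high Calca-low neurons 8.68-fold (6.79 to 11.1) and 10.6-fold (7.63 to 14.9) over Mrgprd+ neurons. In the CFA library 1 neuron held 47.1% of the class's Kcna1 counts.

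In non-myelinating Schwann cells the control level of Kcna2 was 1102 CPM (990 to 1224) and the CFA level 1676 CPM (1456 to 1921), against 433 and 641 CPM in myelinating Schwann cells. Non-myelinating cells were 2.55-fold (2.25 to 2.87) above myelinating cells in control and 2.62-fold (2.23 to 3.06) in CFA. In contrast to Kcna1, neurons also reached high levels. In control, 281 non-myelinating Schwann cells held 349 Kcna2 UMIs and 36 Trpm8+ neurons held 1091. Trpm8+ neurons had 563 CPM (530 to 597) and 638 CPM (586 to 694), Nefh-high Calca-low neurons 382 and 375 CPM, C-LTMR 263 and 299 CPM, and Nefh-high Calca-high neurons 130 and 133 CPM. Mrgprd+ neurons held 75.1 and 73.2 CPM, Calca-high Sstr2- neurons 52.3 and 67.1 CPM, and Calca-high Sstr2+, Mrgpra3+ and Sst/Nppb+ neurons 20.2 to 44.9 CPM. Trpm8+ neurons lay 7.49-fold (6.84 to 8.21) and 8.71-fold (7.54 to 10.1) over Mrgprd+ neurons. The first 3 classes kept their order in both libraries with intervals of neighbouring classes that did not overlap, except Nefh-high Calca-low (321 to 435) and C-LTMR (277 to 323) in CFA, which overlapped. Lower and upper quartiles over single Trpm8+ neurons were 365 and 730 CPM in control and 438 and 833 CPM in CFA.

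Kcna6 (Kv1.6) was at 442 and 842 CPM in non-myelinating Schwann cells and at 186 and 185 CPM in satellite glia, the cells that wrap each neuron body. Satellite glia lay 1.61-fold (1.44 to 1.78) and 1.82-fold (1.53 to 2.17) above all neurons, and non-myelinating Schwann cells 7.89-fold (6.20 to 10.03) and 18.8-fold (13.3 to 26.9) above myelinating ones. Of the 9 neuron classes, 8 sat between 75.3 and 148 CPM, and Trpm8+ neurons stood below, at 24.8 and 12.9 CPM. All neurons together were 4.68-fold and 7.87-fold above the Trpm8+ class, the neuron class with the highest Kcna2. They include that class, so no interval is given. Kcna6 overlaps the antisense gene Gm26673, and whether counting used strand was not given in the sources used here. Genes on the opposite strand also overlap other members, among them Kcnb2, Kcng2, Kcnh1, Kcnh2, Kcnh3, Kcnh7, Kcnq1, Kcnq3, Kcnq5 and Kcns3.

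The 3 Kv1 genes sit in clusters, Kcna1 (chr6:126640397-126646384, minus strand, GRCm38) beside Kcna6 and Kcna5 on chromosome 6, and Kcna2 (chr3:107101146-107115005, plus strand) beside Kcna3 and Kcna10 on chromosome 3. RefSeq promoter windows on the GRCm38.p6 build were at hand for 25 of the 40 members, among them Kcna2, Kcna6 and the C-LTMR member Kcnd3. The 250 bases before the annotated start are shown for these 3, as members with high levels in glia or in a single neuron class, with every CG pair in capitals. The start in RefSeq differs from that of GENCODE M21 for Kcna2, whose window lies inside the gene as given above, and for Kcnd3, whose window ends upstream of the GENCODE start.
Kcna2, chr3:107101317-107101566, plus strand: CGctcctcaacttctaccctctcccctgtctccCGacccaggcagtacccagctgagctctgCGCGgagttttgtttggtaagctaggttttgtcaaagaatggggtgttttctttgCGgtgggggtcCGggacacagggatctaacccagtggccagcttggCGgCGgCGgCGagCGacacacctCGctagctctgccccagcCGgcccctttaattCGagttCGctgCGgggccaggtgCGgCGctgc
Kcna6, chr6:126740675-126740924, minus strand: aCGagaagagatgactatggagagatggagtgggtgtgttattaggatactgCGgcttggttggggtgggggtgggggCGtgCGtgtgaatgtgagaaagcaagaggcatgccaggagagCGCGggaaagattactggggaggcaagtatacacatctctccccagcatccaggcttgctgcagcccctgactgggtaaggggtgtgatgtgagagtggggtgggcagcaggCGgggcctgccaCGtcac
Kcnd3, chr3:105451640-105451889, plus strand: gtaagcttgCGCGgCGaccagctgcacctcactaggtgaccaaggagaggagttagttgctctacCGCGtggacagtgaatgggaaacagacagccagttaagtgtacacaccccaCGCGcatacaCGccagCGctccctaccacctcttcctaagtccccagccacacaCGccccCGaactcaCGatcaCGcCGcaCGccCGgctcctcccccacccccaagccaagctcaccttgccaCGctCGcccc
Kcna2 and Kcnd3 each held 18 CG pairs, a number reached by 21.7% of all 32851 windows, whose median was 6. Kcna6 held 8, which 43.0% of windows reached. Both strands were searched for 4 short motifs, and none was in the 3 windows. The letters ACAAAG were in 16.5% of all windows. The TATA box letters TATAAA were in 12.4% of them. The letters CCAAT were found in 33.8%. The letters GGGCGG were found in 32.7%. That says only that these letters are not in these windows.

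Kcna4 (Kv1.4), an inactivating subunit of the family, was highest in C-LTMR at 58.6 and 69.4 CPM and next in Nefh-high Calca-high neurons at 36.8 and 38.7 CPM. Kcna5 (Kv1.5) was near 0 in every neuron class but Mrgpra3+ neurons, where 19.4 and 14.5 CPM were found from 69 and 11 counts. In mural cells of vessels it was at 83.4 and 53.0 CPM, but from 7 counts or fewer per library, and in endothelial cells at 17.8 and 27.9 CPM.

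**Figure D2:**
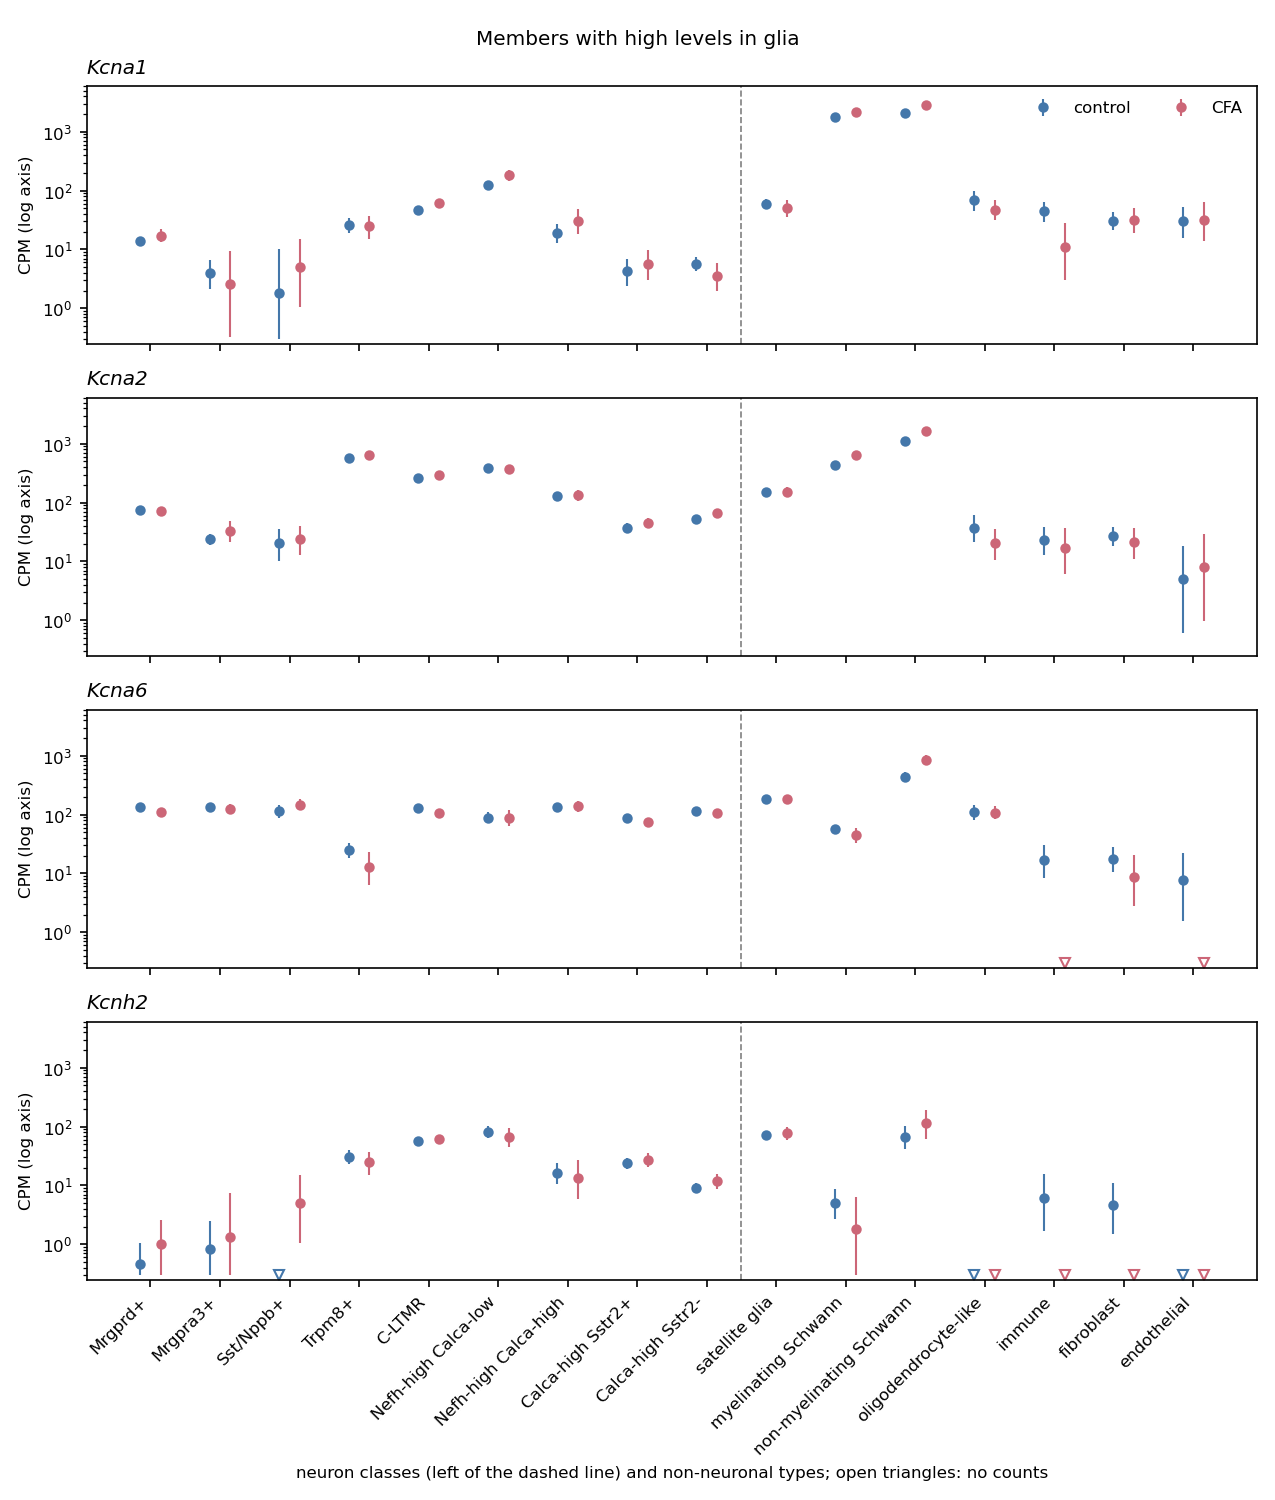
Levels (CPM, log axis) of Kcna1, Kcna2, Kcna6 and Kcnh2 in 9 neuron classes and 7 non-neuronal types, with control in blue and CFA in red and 95% Poisson intervals as bars, cut at the lower edge of each panel. Open triangles mark no counts. Kcna1 stands at 1802 CPM or more in both Schwann classes and at or below 183 CPM in each neuron class.

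Kcnb2 (Kv2.2), a slow delayed rectifier of the cell body, was found in every neuron class. It was highest in Calca-high Sstr2+ neurons, with a control level of 265 CPM (249 to 282) and a CFA level of 330 CPM (307 to 355), and near that in Sst/Nppb+ neurons at 259 and 322 CPM, so these classes did not differ beyond their intervals. Mrgprd+ neurons had 244 and 250 CPM, Mrgpra3+ neurons 246 and 203 CPM, and Calca-high Sstr2- neurons 195 and 258 CPM. C-LTMR were lowest, at 76.1 CPM (67.9 to 85.1) and 75.8 CPM (64.7 to 88.2). Mrgprd+ neurons were 3.21-fold (2.85 to 3.62) and 3.30-fold (2.80 to 3.92) above C-LTMR. The largest level in a non-neuronal type was 22.1 CPM in control and 24.9 CPM in CFA, against 204 and 235 CPM in all neurons.

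The Kv3 genes, whose fast channels allow brief spikes at high rates, divided the classes. Kcnc1 (Kv3.1) was at 117 CPM (102 to 133) and 191 CPM (163 to 223) in Trpm8+ neurons, at 31.2 to 62.3 CPM in the Nefh-high and Calca-high classes, and at 2.99 and 4.11 CPM in Mrgprd+ neurons. Trpm8+ neurons thus lay 39.0-fold (27.0 to 58.0) and 46.5-fold (27.8 to 83.3) over Mrgprd+ neurons. Kcnc2 (Kv3.2) was highest in Trpm8+ neurons at 126 and 119 CPM, with Calca-high Sstr2+ neurons next at 98.8 and 91.6 CPM.

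Kcnc4 (Kv3.4), an inactivating member known from nociceptors, had a different pattern. It was at 265 and 255 CPM in Calca-high Sstr2+ neurons, 1.88-fold (1.73 to 2.04) and 2.12-fold (1.88 to 2.39) above the Calca-high Sstr2- neurons at 141 and 120 CPM. Mrgprd+ neurons had 87.3 and 99.7 CPM. In Mrgpra3+ neurons only 2.24 CPM was found in control and no count in CFA.

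Kcnd1 and Kcnd3 (Kv4.1 and Kv4.3), subunits of the fast A-type current that delays firing, were highest in C-LTMR. Kcnd3 was at 407 CPM (388 to 427) and 417 CPM (391 to 445) there, and at most 75.2 CPM in any other class. C-LTMR lay 6.37-fold (5.83 to 6.97) and 6.73-fold (5.84 to 7.79) above Mrgprd+ neurons, and 57.6% and 68.3% of all classed Kcnd3 counts came from C-LTMR. Lower and upper quartiles over single C-LTMR cells were 278 and 512 CPM in control and 334 and 512 CPM in CFA, and no cell held over 5.47% of the counts. Kcnd1 was at 501 and 469 CPM in C-LTMR, at 310 and 285 CPM in Mrgprd+ neurons, at 256 and 208 CPM in Mrgpra3+ neurons and at 43.4 to 172 CPM in the other classes. Kcnd2 (Kv4.2) had 68 counts in all neurons and was highest in C-LTMR, at 8.87 and 6.85 CPM. Kcnd3 overlaps the antisense gene Kcnd3os.

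**Figure D3:**
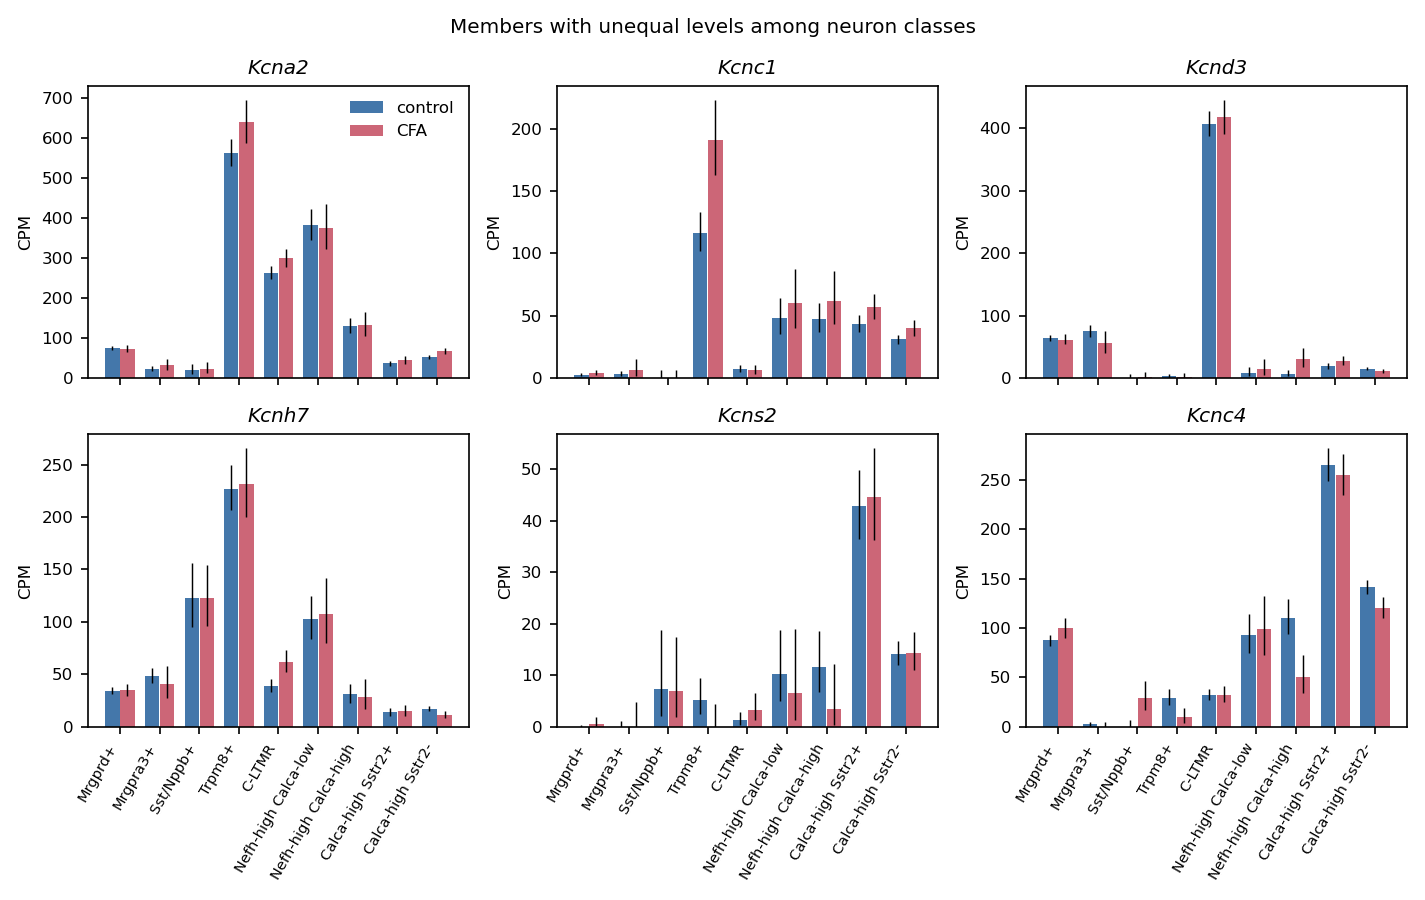
Bars give the level (CPM, linear axis from 0) of 6 members in 9 neuron classes, control in blue and CFA in red, with 95% Poisson intervals. Kcnd3 is at 407 and 417 CPM in C-LTMR, Kcna2, Kcnc1 and Kcnh7 are highest in Trpm8+ neurons, and Kcns2 and Kcnc4 in Calca-high Sstr2+ neurons.

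The silent subunits differed in how their levels were spread over the classes. Kcns2 (Kv9.2) was at 42.8 CPM (36.4 to 49.9) and 44.5 CPM (36.2 to 54.0) in Calca-high Sstr2+ neurons, 3.03-fold (2.40 to 3.83) and 3.12-fold (2.25 to 4.36) above the Sstr2- neurons at 14.1 and 14.3 CPM. It had no counts in Mrgpra3+ neurons of either library and at most 0.514 CPM in Mrgprd+ neurons. Kcns1 (Kv9.1) went the other way among these classes, with 31.5 and 31.0 CPM in C-LTMR, 30.7 and 53.9 CPM in Nefh-high Calca-low neurons, 19.1 and 15.9 CPM in Mrgprd+ neurons, and 0.266 to 0.936 CPM in both Calca-high Nefh-low classes. Kcns3 (Kv9.3) was at 21.0 to 75.7 CPM in every class but C-LTMR, where 0.986 and 1.83 CPM were found. All neurons, which include C-LTMR, lay 40.8-fold and 20.8-fold above C-LTMR for Kcns3, and no interval is given for that reason.

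Kcnv1 (Kv8.1) was at 28.9 and 34.2 CPM in Mrgpra3+ neurons and at 26.4 and 31.5 CPM in C-LTMR, levels that did not differ beyond their counting error, and at 1.27 and 1.29 CPM in Mrgprd+ neurons. Kcng1 (Kv6.1) was at 16.2 and 27.7 CPM in Calca-high Sstr2+ and 12.5 and 21.5 CPM in Calca-high Sstr2- neurons, and at most 7.5 CPM in any other class. Kcng2 (Kv6.2) was at 44.8 and 29.8 CPM in Mrgprd+ neurons, 2.22-fold and 2.34-fold above all neurons. All neurons include the Mrgprd+ class, so no interval is given. Kcnf1 (Kv5.1) was low, at most 6.94 CPM in any class. Kcng3 and Kcng4 had 144 and 25 counts in neurons. These and other members under 200 neuron counts (Kcna5, Kcnd2, Kcnh3, Kcnh5 and Kcnq1) are named after their values were seen.

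Of the Kcnh family, Kcnh7 (Kv11.3, an ERG channel) was highest in Trpm8+ neurons at 227 and 231 CPM, followed by Sst/Nppb+ neurons at 123 and 123 CPM and Nefh-high Calca-low neurons at 102 and 108 CPM, while both Calca-high Nefh-low classes had 11.5 to 17.1 CPM. Trpm8+ neurons lay 6.61-fold (5.75 to 7.60) and 6.66-fold (5.32 to 8.36) above Mrgprd+ neurons. Kcnh8 (Kv12.1, an ELK channel) was at 58.8 and 91.5 CPM in Trpm8+ neurons and at most 21.5 CPM in any other neuron class, with 30.9 and 23.3 CPM in satellite glia. Kcnh1 (Kv10.1, EAG1) was at 52.9 and 53.7 CPM in Calca-high Sstr2+ neurons and 44.8 and 48.8 CPM in C-LTMR, and at most 5.12 CPM in Mrgpra3+, Sst/Nppb+ and Trpm8+ neurons. Kcnh6 (Kv11.2) was at 23.9 and 26.9 CPM in C-LTMR.

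Kcnh2 (Kv11.1, hERG, best known from the heart) was at 80.8 and 66.8 CPM in Nefh-high Calca-low neurons and 57.2 and 61.6 CPM in C-LTMR, and at 0.453 to 1.32 CPM in Mrgprd+ and Mrgpra3+ neurons. Satellite glia had 70.8 and 77.7 CPM, 4.44-fold (3.69 to 5.32) and 3.77-fold (2.82 to 4.98) above all neurons, and non-myelinating Schwann cells 66.3 and 113 CPM. Kcnh3 and Kcnh5, with 158 and 47 counts in neurons, were highest in Calca-high Sstr2+ and in Nefh-high Calca-low neurons.

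Kcnq genes such as Kcnq3 and Kcnq5 encode subunits of the M current, a slow brake on repetitive firing. In control Kcnq3 (Kv7.3) was highest in Mrgpra3+ neurons, at 74.6 CPM against 27.3 CPM in Trpm8+ neurons, and in CFA the highest were Nefh-high Calca-low neurons at 66.8 CPM and Mrgpra3+ neurons at 36.9 CPM. Outside neurons Kcnq3 reached 111 and 244 CPM in oligodendrocyte-like cells, 9.41-fold (6.82 to 12.7) and 26.2-fold (20.7 to 33.0) above all neurons. Kcnq5 (Kv7.5) was at 29.0 and 28.6 CPM in Calca-high Sstr2+ neurons, 2.61-fold (1.99 to 3.44) and 1.97-fold (1.37 to 2.84) above Sstr2- neurons. Kcnq1 (Kv7.1) had 32 counts in neurons, with its highest neuron level in C-LTMR at 2.96 and 6.85 CPM (12 and 15 counts). In endothelial cells it was at 28.0 and 15.9 CPM, from 11 and 4 counts.

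Set against the non-neuronal types, 16 of 35 members were at least 2-fold higher in all neurons than in each of 9 types in both libraries, against 7.03% of all genes. The count includes Kcna4, Kcnb2, Kcnc4, Kcnd1, Kcnd3, Kcnh7, Kcns1, Kcns2, Kcns3 and Kcnv1. Mural and erythroid cells had few counts, and without those 2 types, a choice made after the values were seen, 19 of 35 members passed, against 8.58% of all genes. Members with at least 20 counts in a type and a level above neurons in both libraries included Kcna6, Kcna2, Kcnh2, Kcna1 and Kcnh8 in satellite glia (6 of 11, against 42.2% of all genes). In myelinating Schwann cells they were Kcna1 and Kcna2 (2 of 6, against 43.3%), and in non-myelinating Schwann cells Kcna1, Kcna2, Kcna6 and Kcnh2 (4 of 4, against 56.1%). Oligodendrocyte-like cells had Kcnq3 and Kcna1 (2 of 4, against 45.6%), and fibroblasts (1 of 6, against 44.9%) and endothelial cells (1 of 1, against 54.6%) had Kcna1. Immune cells had none of 2 (53.8% of all genes).

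A list of 27 symbols of auxiliary subunits and partners of these channels was also counted, of which 26 were in the files and 23 had at least 20 counts in neurons. In 17 of 23 the same neuron class was highest in both libraries, against 41.7% of all genes. Dpp10, a transmembrane partner of Kv4, was at 704 and 747 CPM in C-LTMR and at most 239 CPM elsewhere, Kcnip4 at 679 and 626 CPM in Mrgprd+ and 637 and 451 CPM in Mrgpra3+ neurons, and Kcnip2 at 381 and 361 CPM in Mrgprd+ neurons and 339 and 283 CPM in C-LTMR. Dpp6 was broad, at 64.5 to 434 CPM. Among Kv1 partners, Kcnab2 was at 1332 and 1225 CPM in Trpm8+ neurons and Kcnab1 at 219 and 200 CPM in Mrgprd+ neurons. Cntnap2 and Cntn2 place Kv1 channels beside the node. Among neuron classes both were highest in Trpm8+ neurons, the class with the highest Kcna2, at 309 and 304 CPM and at 724 and 738 CPM. Nefh-high Calca-low neurons were near that for Cntnap2, at 269 and 263 CPM. Outside neurons, Cntn2 was higher still in oligodendrocyte-like cells, at 1161 and 1306 CPM. Amigo1, a Kv2 partner, was at 171 and 168 CPM in Trpm8+ neurons and 30.1 and 28.3 CPM in C-LTMR. Other listed genes with at least 200 counts ranged over neurons together from 4.91 CPM for Lgi2 in control to 91.7 CPM for Kcnip3 in CFA, and these were Kcnip1, Kcnip3, Amigo2, Amigo3, Adam22, Adam23, Lgi1, Lgi2, Lgi3 and Dlg4.

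Levels in CFA and control neurons were close for most members. In all neurons 5 of 35 members were over 1.5-fold higher in CFA, against 7.31% of all genes, and 2 were over 1.5-fold lower, against 7.03%. The median log2 ratio of CFA over control was 0.126 over the 35 members and 0.000763 over all genes tested, and 25 of 35 members lay above 0, against 50.1% of all genes. With every neuron weighted equally 3 members were higher. With neurons thinned to 5000 UMIs 1 was, of 28 members that still had 20 counts. Without the cell with the most counts of each member, a choice made after the values were seen, 3 were higher. No share of all genes is given for these alternatives. Kcng1 was higher, with a log2 ratio of 0.81 (0.51 to 1.12), and it was higher in both Calca-high Nefh-low classes, by 0.78 (0.24 to 1.31) in Sstr2+ and 0.78 (0.38 to 1.18) in Sstr2- neurons. Kcnh8 was higher by 0.63 (0.29 to 0.97) on the log2 scale and lay 0.64 (0.20 to 1.07) higher in Trpm8+ neurons. The Kcnh8 ratio fell short of 1.5-fold with a stricter cell filter of 300 genes and 10% mitochondrial UMIs (0.57), with the same mix of neuron classes in both libraries (0.57) and without the cell with the most counts (0.54), and it was -0.11 with every neuron thinned to 5000 UMIs. Kcnq1 and Kcng4 were also higher, fall below the naming minimum of 200 counts and are named because the count is small. Kcnq1 and Kcng4 had 32 and 25 counts.

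Kcng2 was lower in CFA, at a log2 ratio of -0.66 (-0.89 to -0.44), and at -0.59 (-0.89 to -0.29) within Mrgprd+ neurons. Mrgprd+ neurons made up 160 of 764 control and 61 of 393 CFA neurons, and with the same mix of classes in both libraries Kcng2 was at -0.49, short of 1.5-fold. Kcna5 was lower, at -1.14 (-2.01 to -0.35), while within Mrgpra3+ neurons, which held most of its counts and were 45 of 764 control and 12 of 393 CFA neurons, its ratio of -0.42 (-1.49 to 0.51) did not exclude 0.

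Smaller differences with narrow intervals were found for abundant members. In all neurons Kcnb2 was at a log2 ratio of 0.21 (0.15 to 0.26), Kcna2 at 0.24 (0.17 to 0.31), Kcna4 at 0.42 (0.27 to 0.56), Kcnc1 at 0.49 (0.34 to 0.64), Kcnd1 at -0.15 (-0.21 to -0.09) and Kcna6 at -0.19 (-0.27 to -0.11). None reached 1.5-fold, and the sign of the Kcna6 ratio turned in 1 of 10 alternatives. Kcnb2 was higher in Calca-high Sstr2- neurons by 0.40 (0.29 to 0.51) and in Sstr2+ neurons by 0.32 (0.18 to 0.46), at 0.92 (0.46 to 1.37) in Nefh-high Calca-low neurons, and at -0.01 (-0.29 to 0.27) in C-LTMR. Kcnc1 was higher by 0.71 (0.41 to 1.01) in Trpm8+ neurons, where the control and CFA intervals did not overlap. Kcnd3 in C-LTMR was at 0.04 (-0.08 to 0.15) and Kcns2 in Calca-high Sstr2+ neurons at 0.06 (-0.32 to 0.42), so neither differed by more than its counting error.

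**Figure D4:**
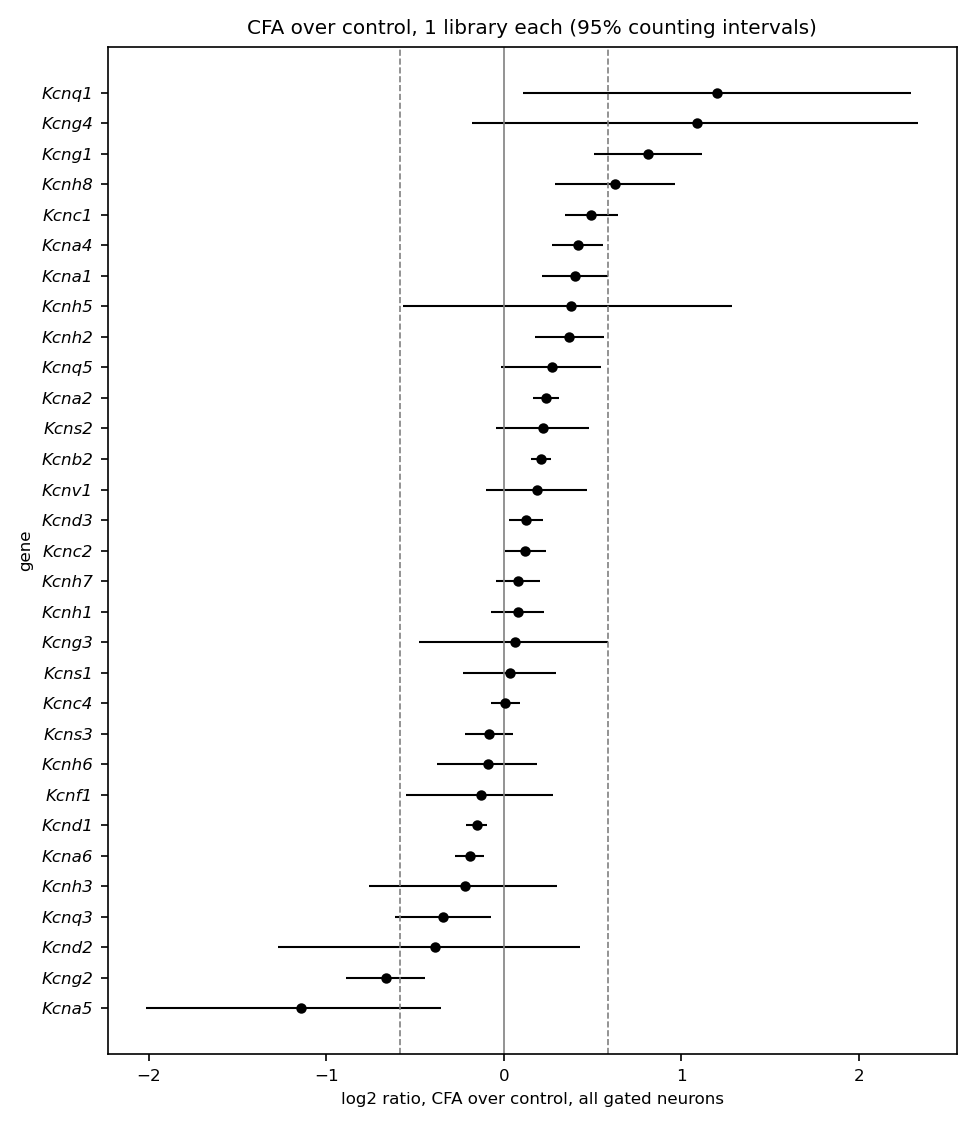
Log2 ratio of CFA over control in all gated neurons for members with at least 20 counts, sorted, with 95% counting intervals from 1 library per condition. Dashed lines mark 1.5-fold. Kcnq1, Kcng4, Kcng1 and Kcnh8 lie right of the upper line, Kcng2 and Kcna5 left of the lower line, and the interval of Kcng4 crosses 0.

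By class, the largest share of members with a higher level in CFA was in Nefh-high Calca-low neurons. Of 19 members with at least 20 counts there, 8 were over 1.5-fold higher and none lower, against 10.8% and 14.8% of all genes, with a median log2 ratio of 0.48 against -0.03 for all genes. Among the 8 were Kcna4, Kcnb2, Kcnq3 and Kcns1. Kcnb2 went from 90.0 CPM (72.2 to 111) to 170 CPM (135 to 212). Without the cell with the most counts of each member 6 of 19 members were over 1.5-fold higher, none was lower and the median was 0.19. With the gate minimums doubled 6 of 19 were higher and 1 was lower, with a median of 0.40. Both choices were made after the values were seen, and no share of all genes is given for them. Neurons of this class had medians of 47439 UMIs in control and 27635 in CFA. Marker genes in the class also differed, as Piezo2 went from 169 to 452 CPM and Ntrk3 from 231 to 123 CPM, and their part in the ratios was not tested.

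In each of the other classes 1 to 5 members were over 1.5-fold higher and 0 to 5 were lower. Mrgprd+ neurons had 1 higher and 1 lower of 23 (5.42% and 7.63% of all genes), Calca-high Sstr2+ neurons 1 and 0 of 23 (6.24% and 8.60%) and Calca-high Sstr2- neurons 2 and 3 of 27 (5.41% and 8.41%). C-LTMR had 3 and 2 of 25 (5.59% and 7.88%), Trpm8+ neurons 3 and 2 of 18 (6.88% and 10.7%), and Sst/Nppb+ neurons 1 and 0 of 10 (11.6% and 11.0%). Nefh-high Calca-high neurons had 5 and 3 of 21 (10.8% and 14.9%), where Kcnc4 had 110 CPM in 21 control cells and 50.5 CPM in 8 CFA cells (log2 ratio -1.13, interval -1.74 to -0.56). Mrgpra3+ neurons had 2 and 5 of 17 (6.97% and 13.5%), with only 12 CFA cells. The median log2 ratio of members there was -0.30 against -0.04 for all genes, and 4 of 17 members lay above 0, against 45.2% of all genes.

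In Schwann cells Kcna2 was higher in CFA, by 0.57 (0.43 to 0.70) on the log2 scale in myelinating and 0.60 (0.35 to 0.86) in non-myelinating cells, and Kcna1 by 0.25 (0.17 to 0.32) and 0.44 (0.25 to 0.62). Kcna6 was at 0.93 (0.55 to 1.31) in non-myelinating cells and -0.01 in satellite glia. In non-myelinating cells 3 of 4 members were over 1.5-fold higher, against 16.5% of all genes. That type was gated on Scn7a, which was itself at 5730 CPM in control and 7222 CPM in CFA. With a gate of at least 3 UMIs of Cdh19 and Ncam1 and 1 of Matn2 and L1cam, chosen after the values were seen, the log2 ratios were 0.15 (-0.23 to 0.52) for Kcna2, 0.40 (-0.11 to 0.89) for Kcna6 and 0.31 (0.04 to 0.57) for Kcna1, over 166 control and 69 CFA cells. The Kcnh2 ratio went the other way, from 0.77 (-0.32 to 1.82) to 1.71 (0.38 to 3.08), the latter from 10 control and 12 CFA counts. Myelinating Schwann cells had none of 6 members over 1.5-fold higher and 2 lower (10.5% and 12.6% of all genes), and satellite glia had 2 higher and 2 lower of 11 (10.6% and 11.0%). In oligodendrocyte-like cells Kcnq3 was over 1.5-fold higher and Kcna2 over 1.5-fold lower, 1 each of 4 members, against 14.3% and 11.8% of all genes. Immune cells had 0 higher and 1 lower of 2 (13.2% and 20.9%), fibroblasts 1 and 1 of 6 (13.4% and 13.5%), and endothelial cells none of 1 (14.6% and 14.5%). No member had 20 counts in mural cells (19.3% and 24.1% of all genes) or erythroid cells (49.3% and 11.9%). Gbp2, an interferon-induced gene, stood apart between the libraries in each of these cells, at 471 and 51.8 CPM in satellite glia, 746 and 78.0 CPM in myelinating and 3273 and 591 CPM in non-myelinating Schwann cells, and its part in the differences of members was not tested.

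Of the 23 genes of the auxiliary list with at least 20 counts in neurons, 2 were over 1.5-fold higher and 2 lower in CFA. The shares of all genes were 7.31% and 7.03%. Lgi2 was at 4.91 CPM in control and 11.1 CPM in CFA, with its highest level in Nefh-high Calca-low neurons at 73.7 and 231 CPM. In the CFA library 1 neuron held 47.6% of the Lgi2 counts. Kcnab3 was also higher, by 0.63 on the log2 scale, and Kcne1l (23 control and 2 CFA counts) and Lgi4 (81 and 22 counts) were lower. These 3 had too few counts for the naming rule and are named because the count is small.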

How the data were processed

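The authors deposited 1 table of whole-number UMI counts per gene and cell for each of 2 libraries, made on the BD Rhapsody platform. The submitters' processing notes name fastp and the build GRCm38, and the version of the BD pipeline and the use of strand were not given in the sources used here. Gene positions are from GENCODE M21.

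Cells were gated by raw UMIs of marker genes. No doublet caller was run. Cells that passed 2 or more class or type gates were left out of every class and type. Levels of all neurons include neurons that passed 2 or more class gates and neurons that passed none. The UMIs of a class were added up within each library and divided by its total UMIs to give CPM, with exact Poisson intervals, and ratios with exact conditional binomial intervals at 95%. A member was called at over 1.5-fold with at least 20 counts over both libraries. With 1 library per condition no test was made. Interval coverage was checked only on counts simulated with Poisson error, the error that the intervals assume. That check does not cover the spread between cells. Members with at least 200 neuron counts, 4 set members (Kcnb2, Kcna2, Kcna1, Kcns2) and up to 3 members per non-neuronal type were to be named. The members, lists and gates were chosen with earlier results of these data known. Alternatives changed cell filters, gates, weights, totals, centring, depth and count minimum. Python 3.11.15, numpy 2.4.6, scipy 1.17.1, pandas 2.3.3 and matplotlib 3.10.9 were used. Some members and marker genes are not reported here by name or in the figures, while the counts over members include them.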

Additional observations from a re-analysis of the deposited data

Results flagged for a closer look

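Named members whose ratio of CFA over control lay over 1.5-fold in opposite directions in a pair of neuron classes, each with an interval off 0, were singled out, and the differences between classes were not tested. Kcnq3 had a log2 ratio of 1.71 in Nefh-high Calca-low neurons, -1.02 in Mrgpra3+ neurons and -2.28 in C-LTMR, where it had 18 control and 2 CFA counts. With the gate minimums doubled the Kcnq3 ratio in Nefh-high Calca-low neurons was 0.38.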

How the results depend on the processing

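Of 12 alternatives the median log2 ratio of members in all neurons ranged from 0.07 to 0.19. The 5 members over 1.5-fold higher in CFA became 3 with every cell weighted equally, 1 with neurons thinned to 5000 UMIs, 3 at a minimum of 100 counts and 3 without the cell with the most counts of each member, an alternative chosen after seeing the data. No share of all genes is given under any alternative, so these changes in count are not read as a trait of the members. With the stricter cell filter and with the same mix of neuron classes 4 were higher, without Kcnh8 in either. The lower members were Kcng2 and Kcna5. With the same mix of classes neither was called and 1 other, Kcnd2, was lower. At a minimum of 100 counts 1 was lower, Kcng2, and with thinning Kcng2 and Kcnh3 were lower and Kcna5 was not called. The 29 members with the same highest class became 15 when thinned, which also turned the Kcnh8 ratio to -0.11. Thinning and the count minimum leave fewer members to test, and the cause of the other changes was not tested. Of 270 ratio values under alternatives 250 stayed within the main interval, and of 378 level values 340 did. Of 27 named members with a ratio in all neurons, only 16 kept the same direction under every alternative. No paired analysis was possible because each condition had 1 library, and no replicate could be left out. Classes with 12 or fewer cells in a library rest on few cells.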
